A study of Mus musculus with 12 samples.

Results

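The comparison set 3 libraries labelled as stroke with GDF10 siRNA against 3 libraries labelled as stroke, and it covered every gene of the deposited count table. Of 23253 genes, 17909 had enough counts to be tested, and 6 of the 12 libraries of the series belonged to these groups. All the libraries were labelled as cortical neurons of C57BL/6 mice, sorted by flow cytometry. Both groups were adult mice with a photothrombotic stroke, in which the dye rose bengal (0.2 ml per 25 g of body weight) was given and the brain was lit with cold light for 15 min after a wait of 5 min to make a lesion 2 mm wide. The siRNA-labelled group was labelled as given GDF10 siRNA in addition, and no siRNA or vehicle was named for the stroke group. The sample titles and the column names of the authors' deposited table name this group by GDF10 alone, without the word siRNA. The sources used here do not settle whether GDF10 was lowered or given, so each fold change is that of the labelled group and not of a loss of GDF10. The siRNA-labelled libraries were numbered 1 to 3 and the stroke libraries 4 to 6. Adult control libraries 1 to 3 and P4 libraries 4 to 6 entered the fit to estimate the spread, and their levels are given beside the results. The labels did not state the time after stroke, the route of the siRNA, what P4 stands for, or whether replicates came from separate animals, so the p-values measure the spread between these libraries, which may be technical. A batch that follows the replicate numbers and the siRNA label cannot be told apart.

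GDF10 is a secreted ligand of the TGF-beta family. Ligands of this family bind pairs of serine/threonine kinase receptors, which phosphorylate SMAD proteins that then act on transcription. In the brain, GDF10 has been studied as a signal that promotes axonal sprouting next to an infarct. Cortical injury also draws in microglia, the resident phagocytes of the brain, and leads precursor cells to form new oligodendrocytes, the cells that make myelin.

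Total counts ranged from 16887717 to 33082818 in these 6 libraries. Libraries of the same label were not always the most alike. The log2 expression of siRNA-labelled library 3 correlated across genes at r = 0.943, 0.943 and 0.894 with stroke 4, 5 and 6, and at 0.873 and 0.875 with siRNA-labelled 1 and 2. The first principal component of the 6 libraries (36.5% of the variance) set siRNA-labelled 1 and 2 apart from the other 4, and the second (23.3%) set stroke 6 apart. Of all counts, 0.329 and 0.304% fell on the 45S entry, the precursor of ribosomal RNA, in siRNA-labelled 1 and 2, against 2.72% in siRNA-labelled 3 and 2.44, 2.11 and 2.11% in stroke 4, 5 and 6. Its part in the results was not tested beyond the fits named below. A library prepared differently from its group and a library with the wrong label cannot be told apart here, and every group mean and count below takes siRNA-labelled 3 as labelled. The Y-linked gene Ddx3y lay at 252, 329 and 126 CPM (library-size-scaled counts, with TMM factors) in siRNA-labelled 1 to 3 and at 160, 116 and 133 CPM in stroke 4 to 6. Xist, the RNA of the inactive X chromosome, was at most 15.2 CPM in these libraries, so all 6 had the markers of male tissue.

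**Figure D1:**
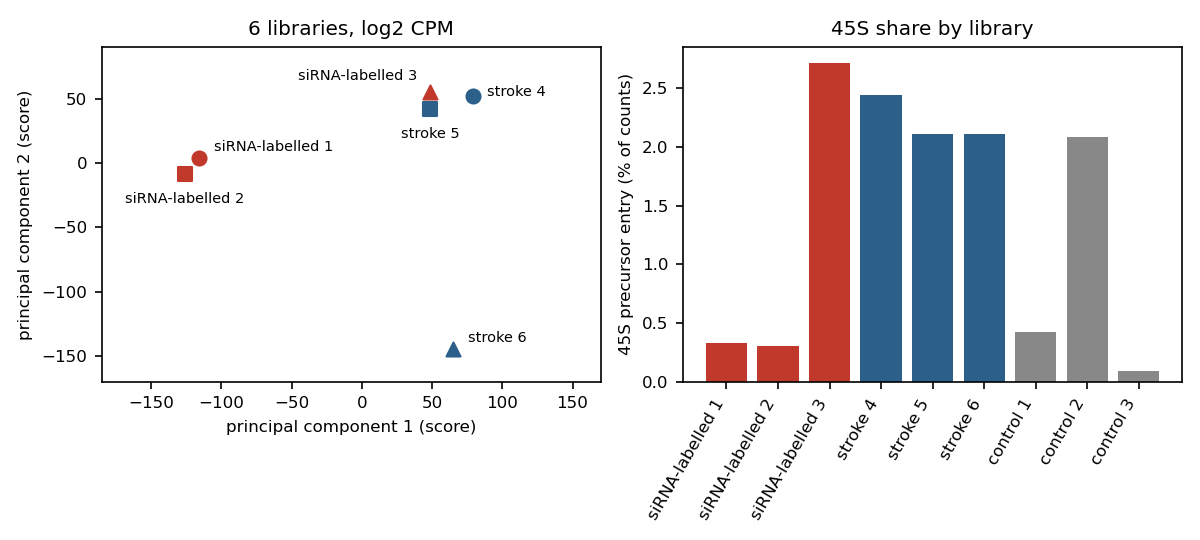
Left, scores of the 3 siRNA-labelled (red) and 3 stroke (blue) libraries on the first 2 principal components of log2 CPM. Right, percent of all counts on the 45S entry in each siRNA-labelled, stroke and adult control (grey) library; siRNA-labelled 3, at 2.72%, stands with the stroke libraries in both panels.

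The marker genes of these 6 libraries did not match the sorted cell type of the label. The 15 mature oligodendrocyte markers took 7.67 to 11.0% of counts in the siRNA-labelled libraries and 6.05 to 7.80% in stroke. The 15 pan-neuronal markers took 0.189 to 0.296% and 0.195 to 0.257%. In adult control the mature oligodendrocyte markers took 4.12 to 9.5% and the pan-neuronal markers 0.239 to 0.654%. In P4 the shares were 0.0125 to 0.0325% and 0.644 to 0.753%. In bulk RNA, fewer cells of a type and less RNA per cell cannot be told apart, and this holds for every group of genes below.

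The gene named by the siRNA label, Gdf10, had raw counts of 8, 7 and 1 with the siRNA label against 0, 5 and 0 in stroke. The 0 counts of stroke 4 and 6 allow a level of up to 3 counts, or 0.104 and 0.163 CPM. The groups overlapped, and the log2 fold change was 2.34 (SE 1.68, adjusted p = 0.782 by edgeR's quasi-likelihood test). Neither a knockdown nor an increase could be read at this depth.

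Over all genes tested, 1 gene (0.00558%) changed at an adjusted p under 0.05 by edgeR's quasi-likelihood test with Benjamini-Hochberg adjustment, and it was Gng4. The next smallest adjusted p was 0.271. Without adjustment, 841 genes (4.7%) were higher and 475 (2.65%) lower at p under 0.05. All 3 siRNA-labelled libraries lay above all 3 stroke libraries for 1392 genes (7.77%), and below them for 1453 genes (8.11%). The counts of such genes, written below as genes whose libraries did not overlap, are read against these last shares, and they are no test. With upper quartile factors, which moved the median log2 fold change of all genes from 0.04 to 0.17, the split was 1693 higher and 1137 lower.

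Gng4 encodes a gamma subunit of heterotrimeric G proteins, which carry signals from receptors at the cell surface. It lies on chromosome 13 from 13784059 to 13827895 (mm10). As the only called gene, its promoter is shown from RefSeq (GRCm38.p6), from 250 bases before to 50 bases after the first annotated start, on the plus strand (chr13:13783809-13784108). The letters CAGAC, the core that SMAD proteins bind, were searched on both strands, and the match is in capitals.
Gng4 promoter: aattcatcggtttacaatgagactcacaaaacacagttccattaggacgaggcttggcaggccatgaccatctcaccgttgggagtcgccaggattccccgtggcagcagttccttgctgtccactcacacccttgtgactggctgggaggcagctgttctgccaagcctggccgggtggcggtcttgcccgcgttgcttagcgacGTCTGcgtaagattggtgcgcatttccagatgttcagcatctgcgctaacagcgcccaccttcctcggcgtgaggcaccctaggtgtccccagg
The match stands on the minus strand. The promoter of the second annotated start (chr13:13784057-13784356) held no CAGAC on either strand. Of 32851 promoters of the same length, 49.6% held these letters, so the match describes the sequence and nothing more.

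Gng4 was at 23.7, 17.4 and 28.0 CPM in siRNA-labelled 1, 2 and 3 and at 144, 137 and 219 CPM in stroke 4, 5 and 6. Each stroke library was several times above each siRNA-labelled library, siRNA-labelled 3 included. Adult control was at 16.6 ± 3.66 CPM and P4 at 71.6 ± 11.8 CPM (SD, n = 3 each). Gng4 fell by 2.85 on the log2 scale (SE 0.365, adjusted p = 0.0225 by edgeR). The call did not hold with any single library left out, where its log2 fold change was between -3.03 and -2.61 and its adjusted p between 0.0553 (without siRNA-labelled 3) and 0.365 (without siRNA-labelled 2). It was also lost with RLE factors (adjusted p = 0.062) and upper quartile factors (adjusted p = 0.0559). Of the 10 gamma subunit genes tested, Gng3 was the other whose libraries did not overlap, at 36.9, 41.6 and 68.3 CPM against 107, 70.0 and 119 CPM in stroke (log2 fold change -1.01, adjusted p = 0.607).

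How many genes were called depended on the model. With only the 6 libraries in the fit, 46 genes were higher and 50 lower, and with the 45S share as a covariate 3 were higher and 10 lower. DESeq2's Wald test called 145 higher and 58 lower, and limma voom with library quality weights 485 and 356. Voom weighted siRNA-labelled 3 at 0.309 and siRNA-labelled 1 and 2 at 1.82 and 0.837. Low weights were not particular to siRNA-labelled 3, with adult control 2 and 3 at 0.336 and 0.194 and P4 6 at 0.304. Gng4 was called in all 4 of these models. In each edgeR fit that left out 1 library no gene was called, while 865 to 2180 genes had an unadjusted p under 0.05.

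Among genes with lower libraries and at least 5 CPM in the higher group, those with the smallest p after Gng4 were a mixture of signalling, matrix, lipid and injury genes. Serpina3n, a secreted protease inhibitor made by glia after injury, was at 364, 479 and 741 CPM in the siRNA-labelled libraries. In stroke it was at 2809, 3493 and 2344 CPM, and in adult control at 15.5 CPM on average. The siRNA-labelled libraries thus lay between the other groups (log2 fold change -2.45, SE 0.522, adjusted p = 0.351). Pik3r3, a regulatory subunit of PI3 kinase, was at 255, 316 and 347 CPM against 1121, 861 and 1091 CPM (-1.74, adjusted p = 0.271). Fyn, a Src family kinase that acts in myelination, was at 253, 279 and 413 CPM against 795, 645 and 1317 CPM (-1.54, adjusted p = 0.351). Arhgap35, an inhibitor of the GTPase RhoA, was at 285, 255 and 457 CPM against 1024, 814 and 1146 CPM (-1.58, adjusted p = 0.351). These 3 signalling genes were picked for having the lowest stroke library above the highest siRNA-labelled library. In each of them siRNA-labelled 3 was the nearest to stroke.

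Other lower genes were Col20a1 (-3.16) and Col9a3 (-1.98), chains of collagens; Frmd4a (-1.92), a scaffold protein of cell polarity; Hsd17b7 (-1.94), an enzyme of cholesterol synthesis; Cmpk2 (-2.12), a mitochondrial nucleotide kinase that interferon induces; and Hpgd (-2.13), which breaks down prostaglandins. Their adjusted p-values were between 0.271 and 0.446. Col20a1 was at 2.91, 14.1 and 15.9 CPM against 86.3, 90.1 and 117 CPM in stroke. Hpgd was at 52.2, 73.3 and 34.4 CPM against 214, 232 and 252 CPM. For 12 of the 12 lower genes every adult control library was below every stroke library, and the siRNA-labelled mean was nearer to the adult control mean than the stroke mean was. These genes were picked for stroke values above the siRNA-labelled ones, which favours both counts, so they describe the genes and support nothing.

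The higher genes with the smallest p were mostly genes of microglia and other phagocytes. Mertk, a receptor with which phagocytes engulf dying cells, was at 77.0, 115 and 69.8 CPM in the siRNA-labelled libraries and at 20.1, 17.1 and 14.7 CPM in stroke (2.33, SE 0.469, adjusted p = 0.319). The adult control mean was 84.6 CPM. Lpl, a lipase of lipid uptake, was at 75.1, 198 and 14.9 CPM against 3.49, 2.72 and 0.597 CPM (5.38, SE 0.948, adjusted p = 0.271). Its siRNA-labelled libraries, which the rule for these genes required to lie above stroke, were far apart, with library 3 lowest. Tnfaip3, a brake on NF-kappaB signalling, was at 118, 248 and 102 CPM against 22.8, 29.0 and 33.6 CPM (2.46, SE 0.54, adjusted p = 0.418). Cd83, a surface protein of activated antigen-presenting cells, was at 90.5, 195 and 84.1 CPM against 22.1, 22.3 and 25.9 CPM (2.39, SE 0.474, adjusted p = 0.319).

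Other higher genes were Itga6 (2.35), a laminin-binding integrin; Havcr2 (3.61) and Lair1 (2.45), inhibitory receptors of immune cells; Cx3cr1 (2.15), the fractalkine receptor; Tifa (3.31), an adaptor of NF-kappaB signalling; Abca9 (1.98), an ABC transporter; and Arrdc3 (1.09), an arrestin-domain protein. Their adjusted p-values were between 0.351 and 0.446. The Arrdc3 libraries lay at 694, 760 and 592 CPM against 360, 334 and 269 CPM. For 9 of the 12 higher genes every adult control library was above every stroke library, and for 5 of the 12 the siRNA-labelled mean was nearer to the adult control mean than the stroke mean was. These genes were picked for low stroke values, so these counts too support nothing.

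**Figure D2:**
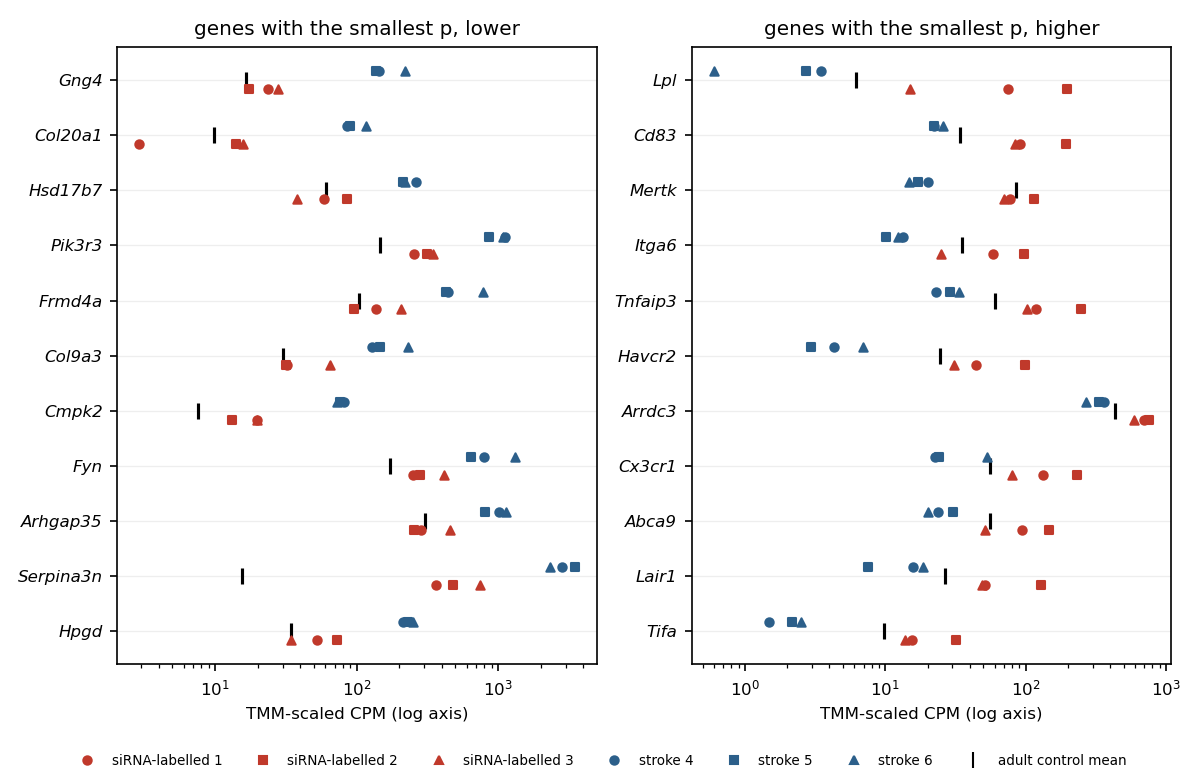
TMM-scaled CPM on a log axis for 11 of the 12 lower and 11 of the 12 higher genes with the smallest p (at least 5 CPM in the higher group, no overlap), 1 symbol per library in red (siRNA-labelled) or blue (stroke), with the adult control mean as a black bar. Gng4, at 17.4 to 28.0 CPM against 137 to 219 CPM, is the only called gene of the 24.

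Genes were also described in lists by role. No member of any list other than Gng4 passed the test over all genes, so the lists are given by counts of members whose libraries did not overlap and by median log2 fold change, beside 7.77% higher, 8.11% lower and a median of 0.04 over all genes. Where counts without siRNA-labelled 3 are given, that setting was chosen after seeing the data, and the shares over all 18796 genes tested were then 20.5% higher and 20.5% lower.

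**Figure D3:**
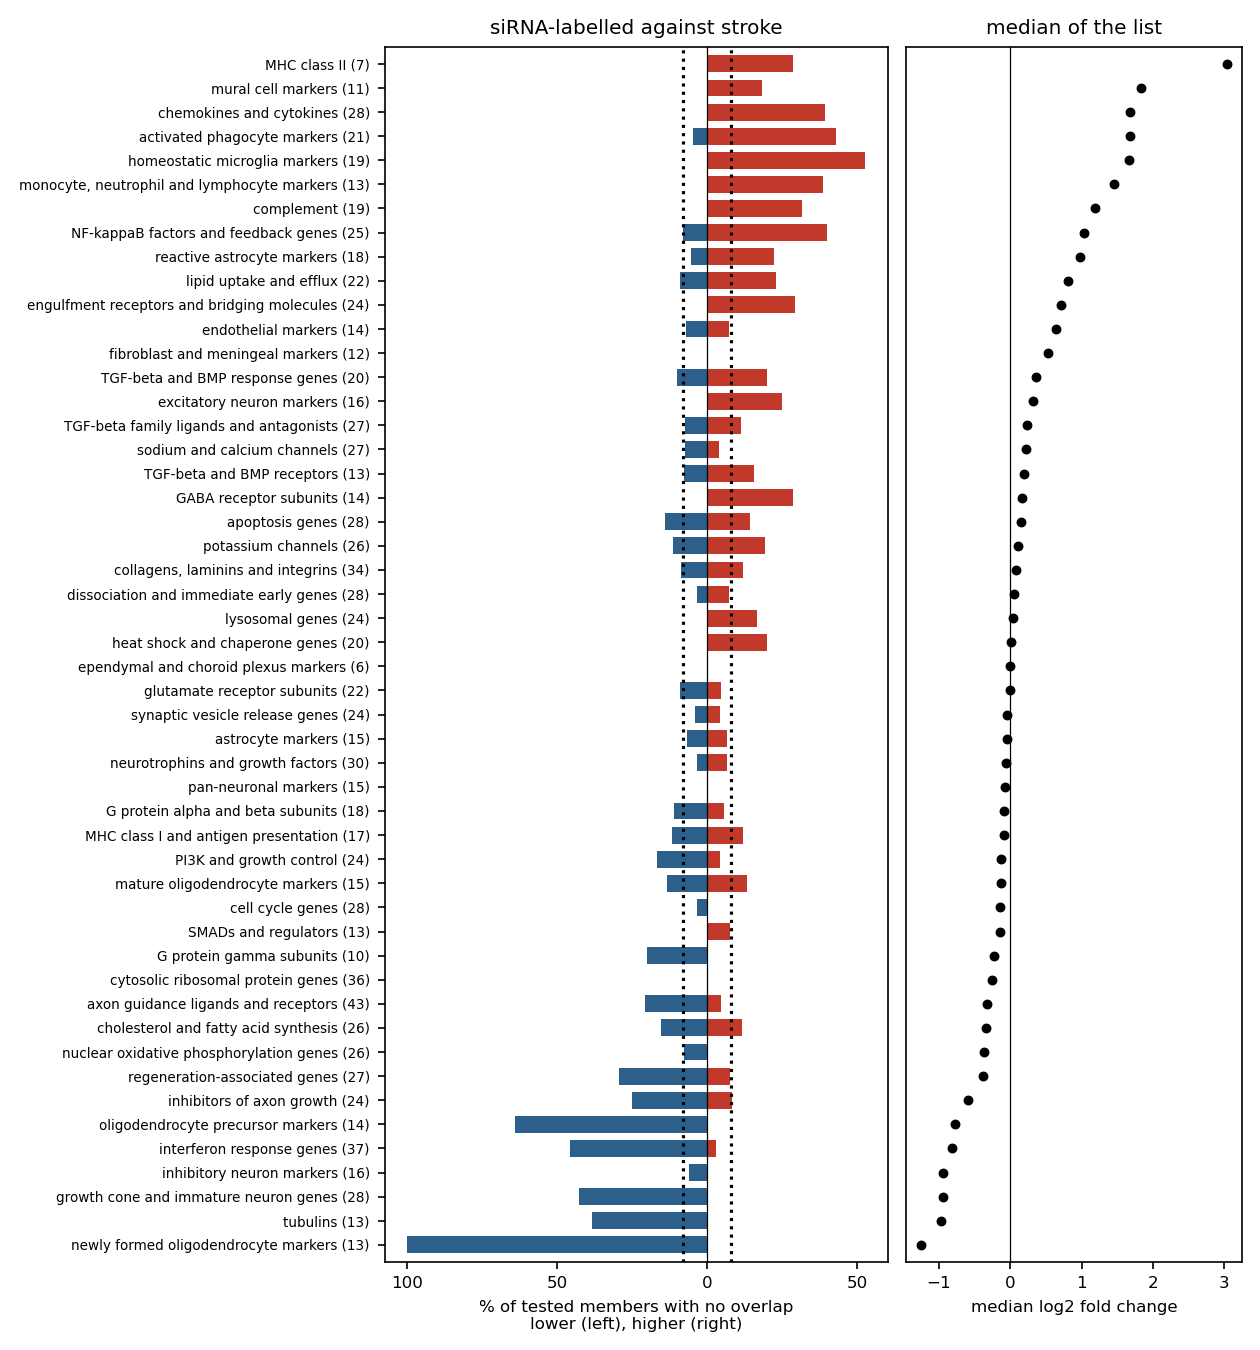
Left, percent of each list's tested members (number in brackets) whose 3 siRNA-labelled libraries all lay above (red, right) or below (blue, left) the 3 stroke libraries, with the shares over all genes as dotted lines (7.77 and 8.11%). Right, the median log2 fold change of each list; newly formed oligodendrocyte markers are lowest at -1.25 and MHC class II genes highest at 3.04.

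The list with the largest share of lower members was that of newly formed oligodendrocytes, cells that have stopped dividing and are starting to make myelin. For 13 of 13 markers the siRNA-labelled libraries lay below the stroke libraries, and 10 had an unadjusted p under 0.05 (median log2 fold change -1.25). The count was 13 of 13 without siRNA-labelled 3 as well. Tcf7l2, a transcription factor of oligodendrocyte differentiation (chromosome 19, 55741797 to 55933659), was at 133, 130 and 104 CPM in siRNA-labelled 1, 2 and 3. In stroke 4, 5 and 6 it was at 362, 252 and 519 CPM (-1.63, SE 0.395, adjusted p = 0.446). siRNA-labelled 3 was the lowest of its group for this gene, although over all genes it was nearer to stroke. Bcas1, a protein of oligodendrocytes that are starting to myelinate, was at 336, 358 and 570 CPM against 1177, 959 and 1566 CPM (-1.55, SE 0.384, adjusted p = 0.446). Itpr2, a calcium release channel that marks newly differentiated oligodendrocytes, was at 115, 199 and 198 CPM against 427, 371 and 597 CPM (-1.45, SE 0.375, adjusted p = 0.446).

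The other members ranged down to Mycl (-1.76) and up to Myrf (-0.96), the factor that switches on myelin genes. Enpp6, an enzyme known as an early marker of this stage, was at 1124, 978 and 580 CPM against 1631, 1413 and 2657 CPM, and at 192 CPM on average in adult control (-1.09). Gpr17, a receptor that is on only between the precursor and the myelinating stage, was at 243, 316 and 736 CPM against 1407, 1148 and 1766 CPM, and at 328 CPM in adult control (-1.74). Together the 13 markers took 0.311, 0.284 and 0.449% of counts in siRNA-labelled 1, 2 and 3 against 0.872, 0.712 and 1.06% in stroke 4, 5 and 6. Adult control libraries lay at 0.119 to 0.371%, below each stroke library, and P4 libraries at 0.0342 to 0.0484%.

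Of 14 markers of oligodendrocyte precursors, the stage before, 9 had lower libraries without overlap and none higher (median -0.77). Without siRNA-labelled 3, 11 of 14 were lower, with a median of -1.10 against -1.38 for the newly formed list. No test compared the lists. Neu4 and Gpr17, and through them part of this count, are shared with the newly formed list. Tnr, an extracellular matrix protein of this lineage that also inhibits axon growth, was at 334, 343 and 504 CPM against 1143, 964 and 1506 CPM (-1.61, adjusted p = 0.451). Sox10, a transcription factor of the whole lineage, was at 380, 300.5 and 477 CPM against 964, 683 and 876 CPM (-1.12, adjusted p = 0.607). Pdgfra, the growth factor receptor that defines dividing precursors, was at 272, 385 and 400.3 CPM against 312, 291 and 449 CPM, and its groups overlapped (0.01).

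Of 15 mature oligodendrocyte markers, 2 were higher and 2 lower without overlap, with a median of -0.14. That median was between -0.44 and 0.13 over the 16 alternatives, so its sign was not stable. Mbp, the myelin basic protein, was at 1767, 1704 and 2597 CPM against 3484, 3284 and 3780 CPM (-0.80, adjusted p = 0.663). Trf, the iron carrier transferrin, was at 1369, 1387 and 4788 CPM against 6475, 6135 and 3461 CPM, with siRNA-labelled 3 among the stroke values. The total share of the mature markers was higher in siRNA-labelled 1 and 2 (11.0 and 10.27%) than in any stroke library, and at 7.67% in siRNA-labelled 3 it overlapped stroke.

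**Figure D4:**
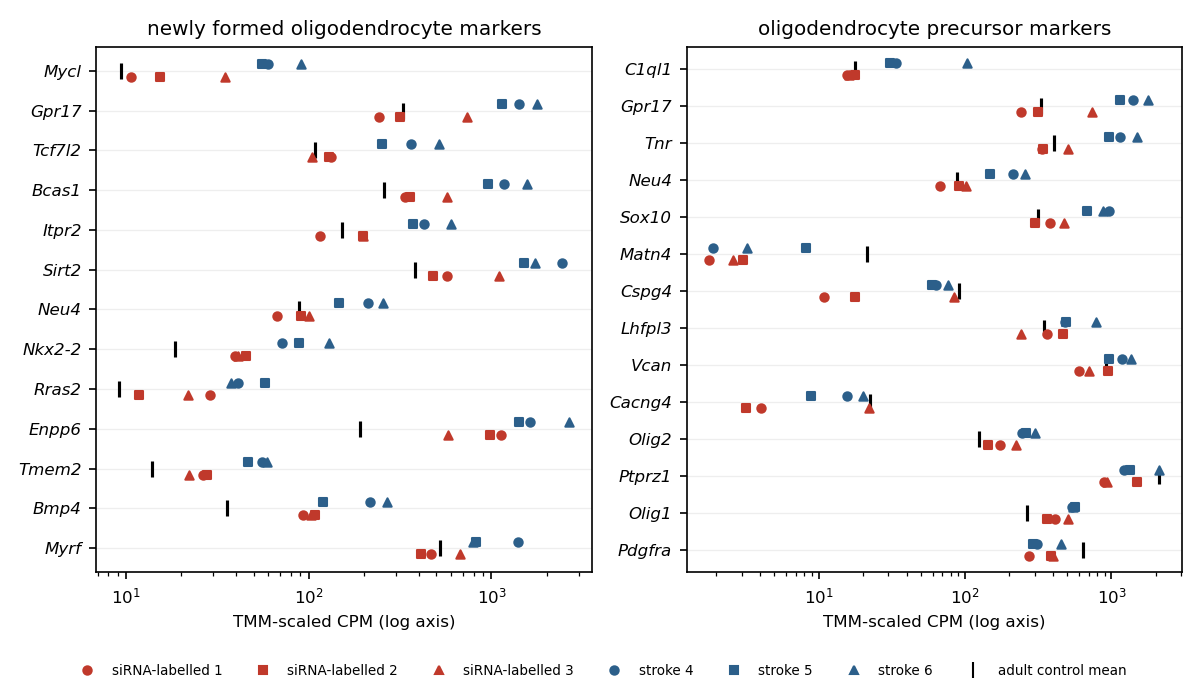
TMM-scaled CPM on a log axis for the 13 newly formed oligodendrocyte markers (left) and the 14 precursor markers (right), with 1 symbol per library and the adult control mean as a black bar. On the left every red symbol lies below every blue symbol of its gene; on the right 9 of 14 genes show this.

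Growth cone genes, which build the moving tip of a growing axon, were lower in the siRNA-labelled libraries for 12 of 28 members without overlap and higher for none, with a median of -0.94. Without siRNA-labelled 3 the count was 18 of 28. Gap43, a membrane protein of growth cones, was at 7.74, 11.8 and 13.98 CPM against 48.0, 18.2 and 27.3 CPM (-1.48, adjusted p = 0.493). Sox11, a transcription factor of immature neurons that is used again during axon regrowth, was at 45.7, 50.1 and 32.3 CPM against 89.2, 67.1 and 114 CPM (-1.08, adjusted p = 0.558). Several members overlapped between the groups, among them Dcx, a marker of young neurons, at 97.2, 225 and 73.8 CPM against 268, 220.3 and 235 CPM (-0.87). Stmn2 (-0.34), which is also on the list of pan-neuronal markers, overlapped as well. Stmn1, another microtubule regulator, had a log2 fold change of 0.30 and was the only member above 0.

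All 13 tubulin genes tested had a log2 fold change below 0 (median -0.97), and the libraries of 5 did not overlap. Without siRNA-labelled 3 this held for 11 of 13 with a median of -1.60, and without siRNA-labelled 1 the median was -0.64. Tuba1a, the main alpha tubulin of growing neurons, was at 284, 262 and 942 CPM against 1528, 1736 and 2362 CPM (-1.92, adjusted p = 0.554). Tubb2b was at 14.6, 8.74 and 23.6 CPM against 43.6, 35.4 and 94.7 CPM (-1.88, adjusted p = 0.470). Tuba1a and Tubb2b, and through them part of this count, are shared with the growth cone list. Tubb4a, the beta tubulin that is abundant in oligodendrocytes, was at 6637, 4682 and 6941 CPM against 14603, 10715 and 10569 CPM (-0.97, adjusted p = 0.578). Reads of tubulin paralogs may have been split by the counting, which the sources do not describe.

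Of 27 regeneration-associated genes, 8 were lower and 2 higher without overlap (median -0.38). Gap43 and Sox11, given above with the growth cone genes, are members of this list too and are among its 8 lower genes. Plaur, the urokinase receptor, was among the higher genes at 13.2, 33.4 and 5.54 CPM against 2.24, 0.641 and 1.47 CPM (3.58, adjusted p = 0.446). Of 43 axon guidance genes, 9 were lower and 2 higher (median -0.32). Slit2, a repellent ligand for axons, was at 12.6, 11.0 and 14.4 CPM against 25.4, 25.2 and 30.0 CPM (-1.08, adjusted p = 0.636). Nrp1, a receptor for semaphorins and for VEGF, was at 105, 233 and 51.7 CPM against 15.98, 40.0 and 48.8 CPM (1.90, adjusted p = 0.636).

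Genes that hinder axon growth were lower too in part. Of 24, 6 were lower and 2 higher without overlap (median -0.59), and 13 were lower without siRNA-labelled 3. The lower member with the smallest p was Tnr, given above, which is shared with the oligodendrocyte precursor list. Ncan and Bcan, chondroitin sulphate proteoglycans of the extracellular matrix, belonged to the lower genes. Ncan was at 200.1, 235 and 175 CPM against 467, 309 and 422 CPM (-0.97, adjusted p = 0.607), and the log2 fold change of Bcan was -1.73, with an adjusted p of 0.657. The medians of the growth cone genes and of the genes that hinder axon growth were thus both below 0.

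Interferon response genes, an antiviral programme that glia also switch on after injury, were lower without overlap for 17 of 37 members and higher for 1, Oas3 (median -0.81). The counts were 19 lower and 3 higher without siRNA-labelled 3. Cmpk2 was at 19.7, 13.1 and 19.955 CPM in the siRNA-labelled libraries and at 81.0, 76.5 and 72.4 CPM in stroke (-2.12, SE 0.427, adjusted p = 0.319). Stat2, a subunit with Irf9 of the transcription factor that interferon turns on, was at 35.8, 40.4 and 42.7 CPM against 92.7, 117 and 105 CPM (-1.40, adjusted p = 0.446). Irf9 lay on the same side, at 17.5, 23.5 and 27.7 CPM against 67.0, 47.1 and 73.8 CPM (-1.45). Ddx58, the RNA sensor RIG-I, was at 51.9, 27.2 and 26.5 CPM against 81.7, 104 and 130 CPM (-1.58, adjusted p = 0.446). The libraries of Ifit2, Irf7 and Ifitm3, other targets of the pathway, overlapped, with log2 fold changes of -0.17, -0.41 and -0.14. The list took 0.101 to 0.119% of counts in the siRNA-labelled libraries, 0.207 to 0.250% in stroke and 0.0255 to 0.0303% in adult control, with no overlap between the 3 groups.

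Markers of homeostatic microglia lay on the other side. Of 19, 10 were higher without overlap and none lower (median 1.67), and 11 were higher without siRNA-labelled 3. Cx3cr1 was at 132, 232 and 80.3 CPM against 22.5, 24.2 and 53.4 CPM (2.15, SE 0.496, adjusted p = 0.446). P2ry13, a nucleotide receptor of microglia, was at 69.3, 151 and 44.7 CPM against 15.2, 15.8 and 32.5 CPM (2.06, adjusted p = 0.446). In both, siRNA-labelled 3 was the lowest of its group and stroke 6 the highest of the other, so the gap between the groups was narrowest there. Other defining markers overlapped. Tmem119, a membrane protein held to be specific to microglia, was at 5.38, 11.4 and 33.3 CPM against 9.56, 5.41 and 28.9 CPM (0.19), and Sall1, the transcription factor of microglial identity, had a log2 fold change of -0.09. The 19 markers took 0.178 to 0.307% of counts in the siRNA-labelled libraries, 0.0427 to 0.141% in stroke and 0.0835 to 0.137% in adult control.

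**Figure D5:**
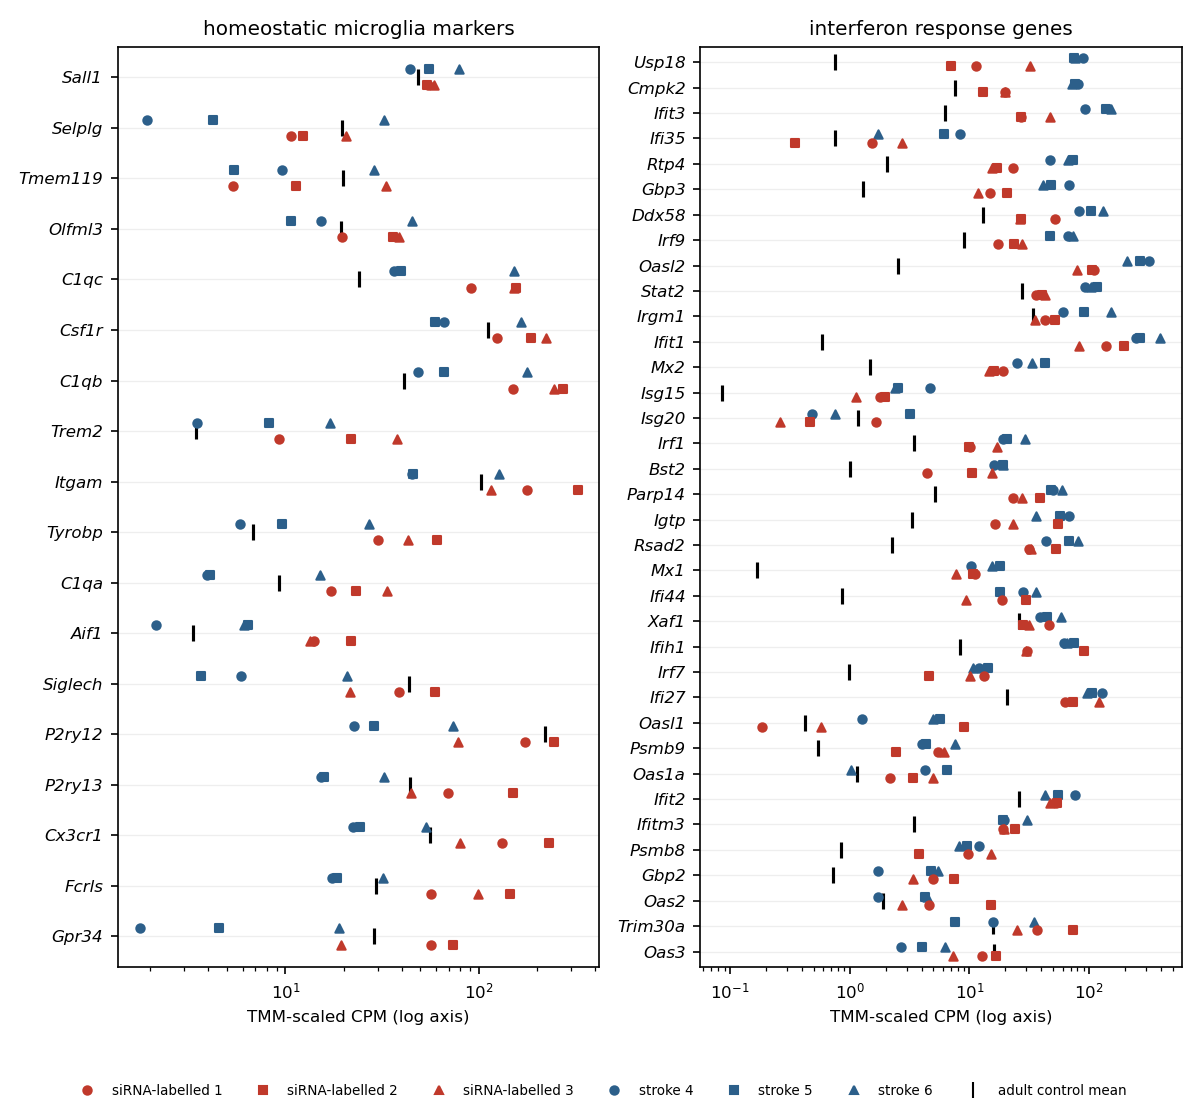
TMM-scaled CPM on a log axis for 18 of the 19 homeostatic microglia markers (left) and 36 of the 37 interferon response genes (right), with 1 symbol per library and the adult control mean as a black bar. Over the whole lists and without overlap, 10 of 19 microglia markers are higher and 17 of 37 interferon genes lower in the siRNA-labelled libraries (red) than in stroke (blue).

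Genes that phagocytes use after injury did not pass the test. Of 21 activated phagocyte markers, 9 were higher and 1 lower without overlap (median 1.67), and 11 higher and 2 lower of 20 without siRNA-labelled 3. The median was 1.02 without siRNA-labelled 2, and the share of counts overlapped, at 0.238 to 0.606% against 0.274 to 0.343% in stroke. Cd14, a coreceptor for bacterial lipopolysaccharide, was at 40.5, 87.7 and 64.7 CPM against 8.70, 14.3 and 4.89 CPM (2.79, adjusted p = 0.451). The lower member was Fabp5, a fatty acid carrier, at 63.1, 87.5 and 74.8 CPM against 149, 209 and 157 CPM (-1.19, adjusted p = 0.446). Of 24 engulfment genes, 7 were higher and none lower (median 0.72), with Mertk, Havcr2 and Abca1, a cholesterol exporter, at their head. Abca1 was at 477, 921 and 360 CPM against 248, 228 and 277 CPM (1.22, adjusted p = 0.547). Of 22 genes of lipid uptake and efflux, 5 were higher and 2 lower (median 0.81, and 0.48 without siRNA-labelled 2). Of 24 lysosomal genes, 4 (16.7%) were higher and none lower, while their median of 0.04 was near that of all genes. Without siRNA-labelled 3, 4 were higher and 5 lower. The 4 higher genes in the full comparison included Ctss, the cathepsin of antigen-presenting cells. It was at 595, 1555 and 671 CPM against 102, 96.8 and 328 CPM (2.42, adjusted p = 0.514).

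Of 28 chemokine and cytokine genes, 11 were higher and none lower without overlap (median 1.68), and 18 of 29 were higher without siRNA-labelled 3. The median was 1.00 without siRNA-labelled 2, and the share of counts overlapped, at 0.261 to 0.326% against 0.191 to 0.291% in stroke. Cxcl2, a chemokine for neutrophils, was at 30.3, 112 and 21.2 CPM against 3.73, 4.52 and 8.42 CPM (3.298, adjusted p = 0.446). Il1a, an early cytokine of microglia, was at 79.8, 196 and 37.4 CPM against 15.4, 16.5 and 34.5 CPM (2.24, adjusted p = 0.446). Of 25 NF-kappaB factors and feedback genes, 10 were higher and 2 lower (median 1.03). Tlr7, a sensor of single-stranded RNA, was at 166, 320 and 59.95 CPM against 12.4, 18.9 and 35.6 CPM (3.03, adjusted p = 0.496). The medians of the NF-kappaB and interferon lists thus had opposite signs.

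Complement genes were higher without overlap for 6 of 19 members and lower for none (median 1.19), while their share of counts overlapped, at 0.0963 to 0.168% against 0.106 to 0.128% in stroke. C5ar1, the receptor for a fragment of C5, was at 29.3, 64.6 and 19.2 CPM against 8.63, 8.58 and 9.01 CPM (2.11, adjusted p = 0.641). C3ar1, the receptor for a fragment of C3, overlapped at 136, 474 and 76.9 CPM against 15.5, 19.0 and 88.0 CPM (2.49). Of 7 MHC class II genes tested, 2 were higher (median 3.04). Cd74, the invariant chain of these complexes, was at 40.0, 85.5 and 54.6 CPM against 9.80, 0.961 and 1.90 CPM (3.83, adjusted p = 0.446). H2-Aa was at 3.16, 42.4 and 17.3 CPM against 1.59, 0.801 and 0.109 CPM (4.63, adjusted p = 0.622), and H2-Ab1 overlapped. Of 17 genes of MHC class I presentation, 2 were higher and 2 lower (median -0.09). B2m, the light chain of class I, was at 3339, 5841 and 1935 CPM against 1683, 1678 and 1921 CPM, so siRNA-labelled 3 and stroke 6 were nearly equal (1.07, adjusted p = 0.732).

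Markers of blood leukocytes were sparse. Of 22 in the table, 13 were tested, and the libraries of 5 did not overlap, all higher (median 1.46). The median was 0.92 without siRNA-labelled 2 and 2.97 without stroke 6. They took 0.0197 to 0.0455% of counts in the siRNA-labelled libraries and 0.00772 to 0.0136% in stroke. Ptprc, the pan-leukocyte antigen that microglia also express, was at 42.9, 156 and 34.6 CPM against 10.18, 5.57 and 21.3 CPM (2.66, adjusted p = 0.524). Cd163, a scavenger receptor of macrophages at vessels and meninges, was at 16.4, 25.4 and 21.8 CPM against 2.73, 4.42 and 1.03 CPM (2.95, adjusted p = 0.584), and adult control was at 17.4 CPM. The part of leukocyte RNA in the phagocyte and cytokine lists was not tested.

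Members of the signalling pathway of GDF10 lay on both sides. Of 27 TGF-beta family ligands and antagonists tested, 3 were higher and 2 lower without overlap (median 0.23, and 0.60 without stroke 6). Their summed share of counts lay the other way, at 0.0270 to 0.0284% in the siRNA-labelled libraries against 0.0362 to 0.0477% in stroke, with no overlap. The leading members had very few counts, as Bmp6, a bone morphogenetic protein, at 0.804, 5.50 and 0.780 CPM against 0.173, 0.224 and 0 CPM. Of 13 receptors, 2 (15.4%) were higher and 1 lower (median 0.20, between 0.11 and 0.41 with 1 library left out). Tgfbr1, the type I receptor for TGF-beta (chromosome 4, 47353222 to 47414926), was at 265, 608 and 135 CPM against 107, 77.0 and 113 CPM (1.76, SE 0.54, adjusted p = 0.556). Tgfbr2, its type II partner, was at 59.7, 87.4 and 51.8 CPM against 13.7, 15.8 and 38.6 CPM (1.55, SE 0.783, adjusted p = 0.7). Both receptors are also expressed by microglia, whose markers lay on the same side, and that part was not tested.

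Downstream of the receptors, 1 of 13 SMADs and regulators was higher and none lower (median -0.15). It was Tgif1, a corepressor of SMADs, at 13.9, 28.2 and 11.8 CPM against 1.35, 3.299 and 10.6 CPM (1.82, adjusted p = 0.697). Smad3, which carries the TGF-beta signal, was at 20.3, 21.6 and 46.7 CPM against 78.9, 59.4 and 40.8 CPM, and siRNA-labelled 3 lay within the stroke values (-1.02, adjusted p = 0.706). Of 20 response genes, 4 (20%) were higher and 2 lower (median 0.37, and 0.08 without siRNA-labelled 1 or 2). Tgif1 is on this list too and is among these 4. Id2, a helix-loop-helix inhibitor that BMP signals induce, was at 27.6, 43.7 and 34.4 CPM against 18.9, 11.3 and 19.4 CPM (1.09, adjusted p = 0.657). Of 24 genes of PI3 kinase and growth control, 1 was higher and 4 lower (median -0.13). Irs1, the insulin receptor substrate, was at 34.3, 40.2 and 68.8 CPM against 109, 136 and 181 CPM (-1.57, adjusted p = 0.607). Socs3, a brake on cytokine signals and on axon regrowth, was at 36.4, 49.3 and 49.9 CPM against 165, 97.1 and 165 CPM (-1.65, adjusted p = 0.701). Socs3 is also on the list of genes that respond to tissue dissociation, and the part of tissue handling in its level was not tested.

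Neuronal lists differed in their counts. None of 15 pan-neuronal markers was free of overlap in either direction (median -0.07). Syt1, the calcium sensor of synaptic vesicles, was at 358, 236 and 409 CPM against 246, 215 and 149 CPM (0.72, adjusted p = 0.72). Of 16 excitatory neuron markers, 4 (25%) were higher and none lower (median 0.33, between 0.11 and 0.82 with 1 library left out). The 4 included Emx1, with raw counts of 1, 42 and 15 against 0, 1 and 1 in stroke. Its lack of overlap thus rested on 1 count in siRNA-labelled 1 and 1 in stroke 6. Neurod6, a factor of pyramidal neurons, was at 17.3, 23.7 and 22.6 CPM against 9.87, 7.14 and 8.09 CPM (1.34, adjusted p = 0.607). The adult control mean of Neurod6 was 21.2 CPM, but its libraries lay at 40.4, 7.28 and 15.9 CPM and overlapped stroke. Of 16 inhibitory neuron markers, 1 was lower and none higher (median -0.94), and the median was between -1.45 and -0.48 with 1 library left out. The lower marker was Dlx2, with few raw counts, at 3, 1 and 6 against 38, 63 and 4 in stroke. Npy, a peptide of interneurons, overlapped and rested on stroke 6, at 22.5 CPM.

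Of 14 GABA receptor subunits, 4 (28.6%) were higher without overlap and none lower (median 0.17). That median was between -0.10 (without siRNA-labelled 1) and 0.56 (without stroke 5), so its sign was not stable. Gabbr1, a subunit of the G protein-coupled GABA-B receptor, was at 111, 120.01 and 93.8 CPM against 92.9, 89.7 and 66.1 CPM, so siRNA-labelled 3 and stroke 4 were nearly equal (0.39, adjusted p = 0.802). Of 26 potassium channel genes, 5 (19.2%) were higher and 3 lower (median 0.11, and -0.07 without siRNA-labelled 3), with Kcnc2, a channel of fast-spiking neurons, at 31.2, 16.2 and 17.3 CPM against 8.46, 4.71 and 5.70 CPM (1.78, adjusted p = 0.571). Glutamate receptor subunits (1 higher and 2 lower of 22), sodium and calcium channels (1 and 2 of 27) and vesicle release genes (1 and 1 of 24) lay near or under the shares over all genes. Without siRNA-labelled 3, vesicle release genes were lower for 10 of 24 members and pan-neuronal markers for 5 of 15. Grik3, a kainate receptor subunit, was at 15.0, 15.3 and 37.4 CPM against 76.6, 85.2 and 102 CPM (-1.96, adjusted p = 0.502).

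Of 15 astrocyte markers, 1 was higher and 1 lower without overlap (median -0.05). S100b, a calcium-binding protein also found in oligodendrocytes, was at 75.0, 87.1 and 206 CPM against 359, 252 and 349 CPM (-1.38, adjusted p = 0.607). Slc1a2, the main glutamate transporter, was at 1330, 710 and 805 CPM against 673, 388 and 628 CPM (0.75, adjusted p = 0.669). Of 18 reactive astrocyte markers, 4 were higher and 1, Serpina3n, lower (median 0.98). The median was 0.19 without siRNA-labelled 2, 1.79 without stroke 6 and -0.04 with the 45S share as a covariate. The share of counts lay the other way, at 0.0568 to 0.0958% against 0.264 to 0.373% in stroke, with no overlap. Serpina3n alone made up most of the stroke share, at a mean of 2882 CPM against 528 CPM in the siRNA-labelled libraries. The share thus says little of the other members. Emp1, a membrane protein of reactive astrocytes, was at 4.15, 40.1 and 7.22 CPM against 0.828, 0.513 and 1.68 CPM (4.09, adjusted p = 0.597). Serpina3n thus lay on the other side from the median of its list. Of 14 endothelial markers 1 was higher and 1 lower, of 11 mural cell markers 2 were higher, and of 12 fibroblast markers none was free of overlap. Their shares of counts overlapped between the groups.

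Lists that bear on RNA quality and tissue handling were set beside these results. Of 36 cytosolic ribosomal protein genes none was free of overlap (median -0.26), but without siRNA-labelled 3, 18 were lower and none higher (median -0.59). Of 26 nuclear genes of oxidative phosphorylation, 2 were lower (median -0.37), and 15 without siRNA-labelled 3 (median -0.78). Many of these transcripts thus lay lower in the 2 libraries with little 45S RNA than in stroke. Rpsa, a protein of the small ribosomal subunit, was at 17.9, 22.8 and 113 CPM against 90.7, 105 and 108 CPM (-0.98, adjusted p = 0.776). Of 28 genes that respond to tissue dissociation, 2 were higher and 1, Socs3, lower (median 0.05). Of 20 heat shock genes, 4 were higher and none lower (median 0.01), among them Hspa1a at 59.0, 80.3 and 79.7 CPM against 18.3, 30.6 and 18.2 CPM (1.71, adjusted p = 0.496), whose reads may be shared with its near-identical copy Hspa1b. The part of RNA quality in the other lists was not tested.

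The authors' deposited table called more genes for the same pair of groups. It listed 20 genes higher (0.086% of 23253) and 17 lower (0.0731%) at a false discovery rate under 0.05. In the authors' deposited table Gng4 had a log2 fold change of -2.86 and a false discovery rate of 1.0539e-06. All 37 genes were tested here, all had the same sign, all were free of overlap between the libraries and all had an unadjusted p under 0.05, while 1 passed after adjustment. The authors' deposited table rests on the same libraries, so this is no independent evidence.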

How the data were processed

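RNA of libraries labelled as sorted cortical neurons was amplified and sequenced as paired 69 bp reads, per the labels' protocols. The submitters' processing notes name CASAVA 1.8.2, edgeR and mm10, and the aligner, the counting tool and its settings are not given in these sources. The authors deposited raw counts per gene, which were used for every test made here. The authors' deposited table also gave a log2 fold change, and p-values with false discovery rates, for this pair of groups, and these are quoted only where named. A further 45 columns of the table were not used. The first P4 column is named P3 and was matched by its number.

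Counts were filtered with filterByExpr by group, scaled with TMM factors and fitted with 1 mean per group over all 12 libraries (edgeR 4.0.16, robust quasi-likelihood, R 4.3.3). Genes with an adjusted p under 0.05 over all genes tested were called. Standard errors (SE) were derived from each fold change and its F value. The fit was tested on simulated data. Alternatives used limma 3.58.1 and DESeq2 1.42.0. Of 23253 genes, 22921 matched RefSeq genes of mm10.

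The members of the lists, and the lists themselves, were chosen with earlier results of these data known. Named genes were Gdf10, the called gene, the 12 per direction with the smallest p (no overlap, no predicted genes and a group mean of 5 CPM or more) and the 3 list members with the smallest p, some of which are not reported here or shown in the figures. Other list members, Ddx3y, Xist and the promoter motif were chosen after their values were seen.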

Additional observations from a re-analysis of the deposited data

How the results depend on the processing

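No paired analysis was possible because the stroke libraries were numbered 4 to 6 and the siRNA-labelled libraries 1 to 3, so the groups share no number. The count of 1 called gene became 0 with RLE or upper quartile factors, 13 with the 45S share as a covariate, 96 with the 6 libraries alone, 203 with DESeq2, 409 with edgeR's exact test on the 6 libraries and 841 with limma voom. It was 0 without any single library (lowest 0, highest 0). The counts of genes without overlap ranged from 2064 to 3853 higher and from 1985 to 3860 lower with 1 library left out, where fewer libraries have to be separated, and the highest values were those without siRNA-labelled 3. Of 152 named genes, 135 had a value in all 16 alternatives and the others in 13 to 15. In the alternatives that gave a value, 3 changed sign and none of these was called: Acta2 (-0.0245 without siRNA-labelled 1, and up to 4.18 with another library left out), Dcn (-0.13 without siRNA-labelled 2, and up to 3.93) and Foxj1 (0.32 with the 45S covariate). The cause was not tested. Of 50 list medians, 21 changed sign in at least 1 alternative. The medians of the newly formed oligodendrocyte (-1.44 to -1.12), growth cone (-1.05 to -0.74), interferon (-1.01 to -0.67) and homeostatic microglia lists (1.302 to 2.23) did not. The few counts of Gdf10 did not allow a difference to be read.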
